A study of Rattus norvegicus with 6 samples.

Results

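miR-223, miR-150 and miR-342 are miRNAs best known from white blood cells, and their mature arms were followed here in small RNA of the rat lumbar spinal cord. The members were taken by name, as every row of the count table called miR-223, miR-150 or miR-342 with any arm suffix. The rule itself uses only names, but the 3 precursors were picked with earlier results of these data known, so the count of called members is not independent support. This gave 6 of the 753 listed mature miRNAs, the 5p and the 3p arm of each of the 3 precursors. All 6 passed the filter on low counts, as did 459 miRNAs in all.

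The BCP group (bone cancer pain) had received living Walker 256 cells, a rat breast carcinoma line, in the marrow cavity of the left tibia, and the sham group had received heat-killed cells of the same line by the same route. Both groups thus share the surgery, the injection and exposure to tumor-cell material. The cord was taken on day 14, from the side of the injection and without its meninges according to the labels. The labels give the strain as Wistar, the paper gives female Sprague Dawley rats, and the age is not given in the sources used here. Each group held 3 libraries, called BCP rats 1 to 3 and sham rats 1 to 3 below. The labels only number them, so the p-values measure the spread between these libraries. Library totals were 23770677 counts in BCP rat 1 and between 13464349 and 16035816 in the other 5 libraries. Levels are given as CPM, counts per 1000000 after TMM scaling of the library totals, a scaling in which most miRNAs are taken as unchanged.

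A miRNA is cut from a hairpin precursor as a short duplex, and one strand of it, the 5p or the 3p arm, is usually loaded into an Argonaute protein while the other is mostly discarded. Bases 2 to 8 of the loaded strand, the seed, pair with target mRNAs. miR-223 is abundant in neutrophils and monocytes, where it is switched on during myeloid differentiation and restrains inflammatory signalling. miR-150 is abundant in mature B and T lymphocytes, where the transcription factor Myb is its classic target, and miR-342 is transcribed together with its host gene Evl and is also abundant in lymphocytes. None of the 3 is restricted to blood cells, and in bulk cord more cells of a type and more RNA per cell cannot be told apart.

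The mature sequences are shown because they set which strands were counted and how far these miRNAs lie from the other listed ones. They are RefSeq sequences on assembly GRCr8, written 5′ to 3′ with the seed in capitals, and 4 of the 6 arms had an entry. The arms of miR-150 are named only.
rno-miR-223-3p: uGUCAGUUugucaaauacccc
rno-miR-223-5p: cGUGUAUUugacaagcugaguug
rno-miR-342-3p: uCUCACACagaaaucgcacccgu
rno-miR-342-5p: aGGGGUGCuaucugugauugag
The 4 seeds differ from each other, and 0 of the other listed miRNAs with a sequence (688 of the 753 had one) carried any of them. The nearest listed sequence was at least 8 edits (changed, added or missing bases) away from each, with 8 edits for miR-342-5p and 10 for miR-342-3p. The methods describe a length of 21 to 22 nucleotides for known miRNAs. miR-342-3p and miR-223-5p are annotated with 23 nucleotides and had counts in every library, as did many others. Of the 552 miRNAs with both counts and a sequence, 157 had an annotated length outside that range, with 24.1% of the counts. Mir223 lies on chromosome X in that assembly, inside a long noncoding RNA locus between the protein genes Msn, which encodes the membrane linker moesin, and Vsig4, which encodes a macrophage complement receptor. Mir342 lies inside Evl on chromosome 6.

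Both arms of miR-223 rose in the BCP group, while the 4 arms of miR-150 and miR-342 did not pass the test. miR-223-3p was 4.34-fold and miR-223-5p 5.59-fold higher in mean level. miR-150-5p and miR-342-3p, the 2 abundant arms, were at 0.911-fold and 1.08-fold. Across all 459 tested miRNAs, 16 (3.49%) were called higher and 0 (0%) lower in the BCP group by edgeR's quasi-likelihood test, where a call needs an adjusted p under 0.05 together with a log2 fold change larger than 0.8 in size. At an unadjusted p below 0.05, 49 were higher and 11 lower. Among the 6 arms, 2 were called higher and 0 lower. These counts lean on single libraries: over all miRNAs 8 were called without BCP rat 2, 9 without sham rat 1 and 10 without BCP rat 3, and among the 6 arms 1 was called without BCP rat 2. The low-count filter asked for 0.674 CPM of the unscaled total in at least 3 libraries. miR-223-5p reached that level in all 3 BCP libraries and in 0 sham libraries, so it entered the test only through the group in which it was high, and its call adds no support to the count. It was also called with no filter, as was miR-223-3p.

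The groups did not overlap in the 2 miR-223 arms and overlapped in the other 4, while they did not overlap in 85 of all 459 tested miRNAs (18.5%). miR-223-5p, tested only through the BCP group, adds no support to that count either. The median log2 fold change was 0.13 over the 6 arms and -0.0034 over all tested miRNAs.

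**Figure D1:**
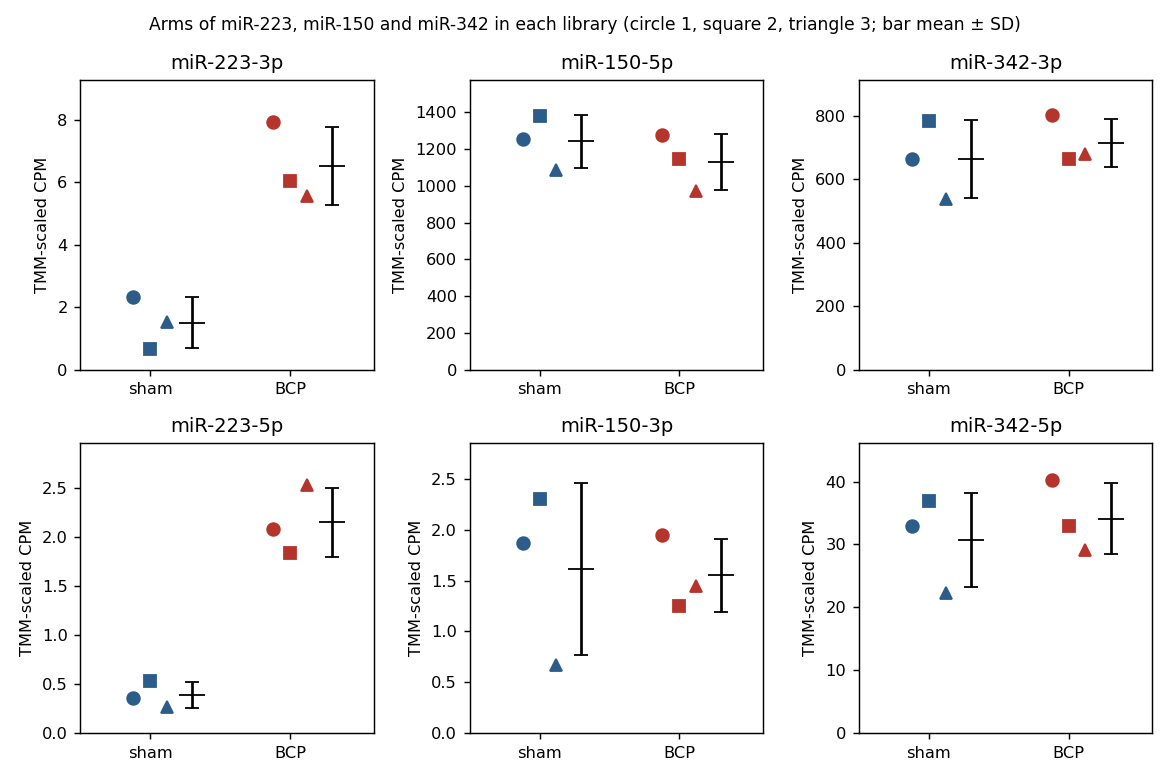
TMM-scaled CPM (vertical axes, from 0) of each arm in the 3 sham libraries (blue) and the 3 BCP libraries (red), with the symbol marking the library number and the black bar the group mean ± SD. For both miR-223 arms every BCP library lies above every sham library, and for the other 4 arms the groups overlap.

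miR-223-3p, the arm usually loaded in myeloid cells, was counted 187, 82 and 88 times in the BCP libraries, listed by rat number. The sham libraries held 32, 10 and 23 counts. The lowest BCP library was at 5.57 CPM and the highest sham library at 2.31 CPM, so the groups were apart. The mean was 1.5 ± 0.825 CPM in the sham group and 6.51 ± 1.25 CPM in the BCP group (SD, n = 3 each). The log2 fold change was 2.13 with a standard error of 0.37, a 95% interval of 1.27 to 2.99 and an adjusted p of 0.01897 (edgeR quasi-likelihood test). Without BCP rat 2 the log2 fold change was 2.18 and the adjusted p 0.0614, which ends the call, and without each of the other 5 rats the call held. Sham rat 2 stood lowest with 10 counts, or 0.651 CPM of its unscaled total (95% exact interval 0.312 to 1.20), and without it the log2 fold change was 1.77.

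miR-223-5p, the other strand of the same duplex, was scarcer and separated the groups as well. It was counted 49, 25 and 40 times in the BCP libraries, against only 5, 8 and 4 times in the sham libraries (rats 1 to 3 each). The means were 2.15 ± 0.35 CPM and 0.385 ± 0.131 CPM (SD, n = 3 each). Its log2 fold change of 2.46 (standard error 0.32, 95% interval 1.72 to 3.19) had an adjusted p of 0.004122 in the same edgeR test. The call held without each rat in turn, with log2 fold changes from 2.22 to 2.75. In the main fit this arm entered the test only through the BCP group, so these calls are not independent support. The requirement of 10 counts in every library removed this arm, since no sham library reached that number.

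By size of the log2 fold change, miR-223-5p was number 4 and miR-223-3p number 6 of the 16 called miRNAs. Both stayed rare. In the BCP rats miR-223-3p was between place 342 and place 357 of the 753 miRNAs by count, and in the sham rats between place 393 and place 451. The counting error of so few reads is large. For miR-223-5p in the sham rats, counts of 4 to 8 carry a counting error of 35.4% to 50.0%, and the spread between these rats was 34.1% of the mean. For miR-223-3p in the sham rats the spread between rats was 55.0% of the mean, above the counting error of 17.7% to 31.6%. PCR copies of one molecule were not marked, so these errors and the intervals on single libraries cover counting only. The depth of the libraries was uneven, and BCP rat 1, the deepest, also had the highest miR-223-3p level. Without it the log2 fold change was 1.94 and the arm was still called.

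**Figure D2:**
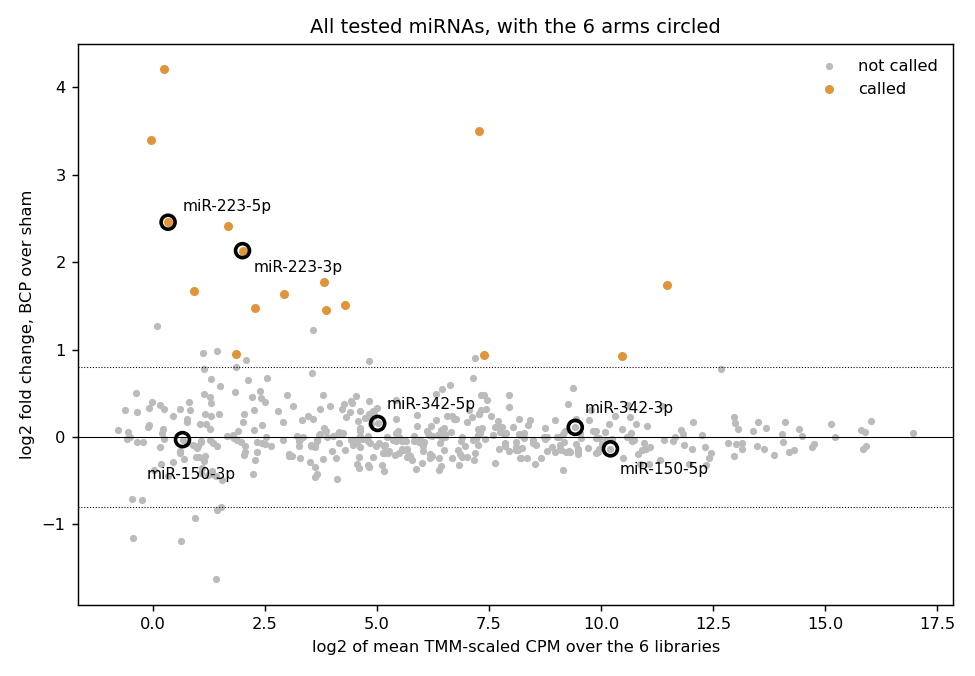
Log2 fold change of BCP over sham (vertical axis) against the log2 mean level (horizontal axis) for the 459 tested miRNAs, with the 16 called ones in orange, dotted lines at 0.8 and -0.8, and the 6 arms circled. The miR-223 arms sit at the low end of the level axis, among the called miRNAs, and miR-150-5p and miR-342-3p sit near 0 at a high level.

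rno-miR-150-5p was the most abundant of the 6 arms in every library. Its level was 1275, 1147 and 970 CPM for BCP rats 1 to 3. Sham rats 1 to 3 were at 1257, 1379 and 1088 CPM. The groups overlapped, with the highest library a sham one and the lowest a BCP one. The mean was 1241 ± 146 CPM in the sham group and 1131 ± 154 CPM in the BCP group (SD, n = 3 each). The log2 fold change was -0.13 with a standard error of 0.14 and an adjusted p of 0.7254 in the edgeR test. Its 95% interval, -0.45 to 0.18, corresponds to between 0.732-fold and 1.13-fold. Counting error was 0.577% to 0.808% in each library, less than the spread between rats, which was 13.6% of the mean in the BCP group and 11.8% in the sham group.

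The groups also overlapped for miR-342-3p. It was at 802, 664 and 678 CPM for BCP rats 1 to 3, and sham rats 1 to 3 gave 664, 784 and 538 CPM. The lowest library was sham rat 3 and the highest BCP rat 1, and the remaining 4 lay between them. The log2 fold change was 0.11 with a standard error of 0.16, a 95% interval of -0.25 to 0.47 and an adjusted p of 0.8123. Its passenger arm miR-342-5p ranged from 22.3 to 36.9 CPM among sham rats and from 29.2 to 40.3 CPM among BCP rats. The log2 fold change of that arm was 0.16 (standard error 0.21, adjusted p 0.8067). For both arms of miR-342 the sign turned without sham rat 3, to -0.05 and -0.06, so no direction can be read from them.

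miR-150-3p, the passenger arm of miR-150, was also rare, at 1.55 CPM on average in the BCP group and 1.62 CPM in the sham group, and had the largest standard error of the 6 arms. Its counts were 46, 17 and 23 for BCP rats 1 to 3, while sham rats 1 to 3 had 26, 35 and 10. The log2 fold change of -0.03 had a standard error of 0.42 and a 95% interval of -0.999 to 0.94, which spans 0.5-fold to 1.92-fold. The spread between sham rats was 52.4% of the mean, above their counting error of 16.9% to 31.6%. The sign turned in several alternative fits, among them those without sham rat 2 (0.33) and with limma-voom (0.12), so no direction can be read from this arm.

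In the order of levels, miR-150-5p was above miR-342-3p in all 6 libraries, and the highest miR-342-3p level, 802 CPM, was below the lowest miR-150-5p level, 970 CPM. miR-342-5p came next, followed by the 3 rare arms. In the sham rats miR-150-3p (0.669 to 2.30 CPM) and miR-223-3p (0.658 to 2.31 CPM) overlapped, whereas in the BCP rats miR-223-3p (5.57 to 7.93 CPM) was above miR-150-3p (1.25 to 1.95 CPM) in every library. Reads of all mature miRNAs are of similar length, so no length scaling was applied, but adapter ligation captures some ends better than others, which limits comparison of levels between miRNAs.

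miR-223-3p was also set against miR-150-5p and miR-342-3p inside each library as a ratio of counts, which needs no scaling of library size. Neither miR-150-5p nor miR-342-3p was called, so the differences below largely repeat the log2 fold change of miR-223-3p, 2.13. None of these miRNAs is restricted to blood cells, so the ratios do not measure a shift between cell types. For every 1000 counts of miR-150-5p there were 6.22, 5.26 and 5.74 counts of miR-223-3p for BCP rats 1 to 3. Among sham rats the numbers were 1.84, 0.477 and 1.41. The BCP libraries were close together and above every sham library. The difference of the mean log2 ratios was 2.38, or 5.21-fold (p = 0.1 by a two-sided exact permutation test, which cannot go lower with 3 against 3). Against 1000 counts of miR-342-3p the values were 9.88, 9.10 and 8.21 for BCP rats 1 to 3, compared with 3.47, 0.839 and 2.86 for sham rats 1 to 3. That difference was 2.12 on the log2 scale, or 4.35-fold (p = 0.1, again the lowest value this exact permutation test allows). The SD of these log2 ratios was 1.01 and 1.09 among sham rats, and 0.12 and 0.13 among BCP rats; sham rat 2 with its 10 counts of miR-223-3p stood apart. Without that rat the differences were 1.81 against miR-150-5p and 1.50 against miR-342-3p on the log2 scale.

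**Figure D3:**
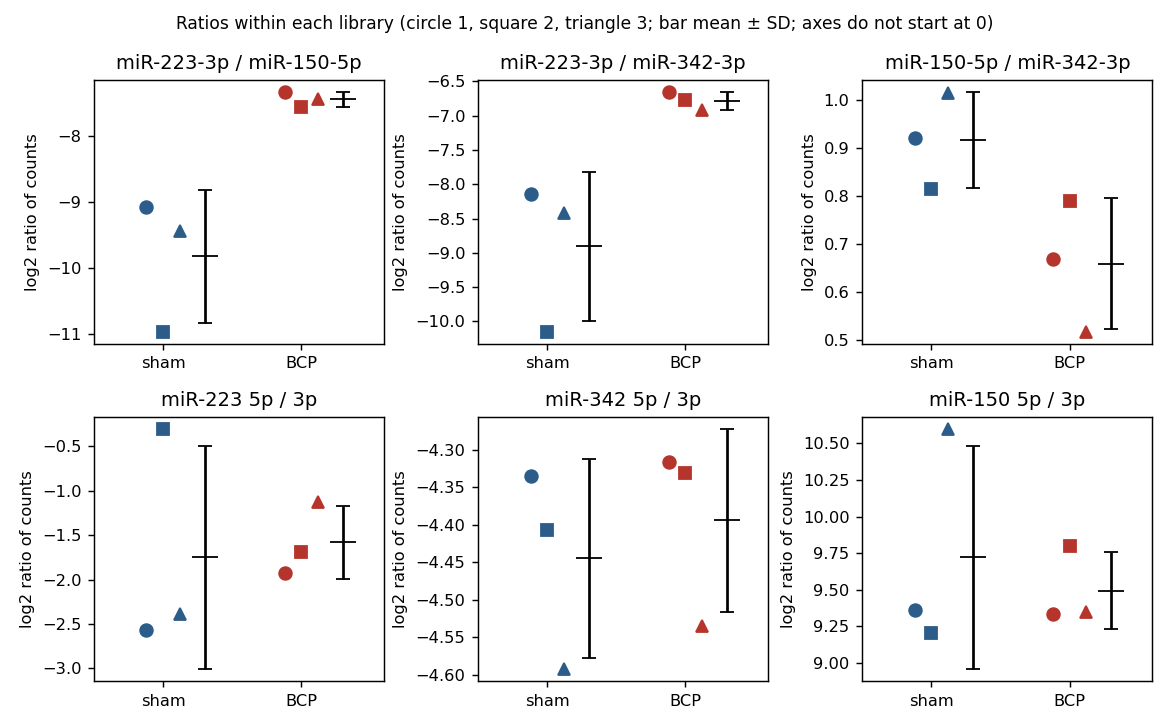
Log2 ratio of counts (vertical axes, which do not start at 0) in each sham (blue) and BCP (red) library, with symbols for the library number and black bars for the mean ± SD. The upper left and upper middle panels set miR-223-3p against miR-150-5p and miR-342-3p and show the groups apart, the upper right panel sets miR-150-5p against miR-342-3p, and the lower panels set the 5p against the 3p arm, where the groups overlap.

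Within a precursor, the balance of the arms did not separate the groups when all 6 libraries were used, and for miR-223 this rested on sham rat 2. The 5p arm of miR-150 made up between 99.8% and 99.9% of the precursor's counts in all 6 libraries. For miR-342 the 5p arm held 3.98% to 4.78%, with a difference in mean log2 ratio of 0.05 between the groups (two-sided exact permutation test, p = 0.5). miR-223 had the most even arms. Its 5p arm held 20.8%, 23.4% and 31.2% of the counts for BCP rats 1 to 3, compared with 13.5%, 44.4% and 14.8% for sham rats 1 to 3. The value of sham rat 2 rests on 8 reads of 5p and 10 of 3p, with a 95% exact interval of 21.5% to 69.2%. The difference in log2 ratio was 0.17 (two-sided exact permutation test, p = 0.9), against an SD of 1.26 among sham rats. Without sham rat 2 every BCP library lay above both remaining sham libraries, and the difference was 0.89 (p = 0.1, the lowest that the exact permutation test allows with 3 against 2).

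The libraries were searched for miRNAs whose levels followed each main arm, by Pearson's r of log2 CPM over the 6 libraries and 457 other miRNAs. These values describe 6 points that share scaling and group structure, and they carry no test. Nearest to miR-223-3p were miR-17-1-3p (r = 0.977), miR-339-3p (r = 0.936) and miR-130b-5p (r = 0.920). Of these, miR-17-1-3p (log2 fold change 0.95) and miR-130b-5p (1.77) were also called higher, and miR-339-3p (0.43, adjusted p 0.1142) was not. Its own partner miR-223-5p reached r = 0.824. Nearest to miR-150-5p were miR-344b-5p (r = 0.992), miR-1306-5p (r = 0.991) and miR-134-3p (r = 0.971). Nearest to miR-342-3p were miR-423-5p (r = 0.979), miR-125b-2-3p (r = 0.972) and miR-378a-3p (r = 0.966). None of these 6 was called. miR-150-5p and miR-342-3p followed each other less closely (r = 0.59), and miR-223-3p followed neither of them (r = -0.425 and 0.147).

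Among other miRNAs of leukocytes some rose and others did not pass the test. Of 9 listed arms of miR-142, miR-155, miR-146a, miR-146b and miR-147, 7 were tested, 5 were called higher and 0 lower, against 3.49% and 0% of all tested miRNAs. miR-147 and miR-155-3p reached the filter's level in 0 sham libraries and were tested only through the BCP group. Of the other 5 tested arms 3 were called, with a median log2 fold change of 1.74, and with those 2 included the median was 2.42 (-0.0034 over all tested miRNAs). miR-155 and miR-146a are induced by NF-κB signalling in activated macrophages and lymphocytes. The paper also located miR-155-5p in cord cells of BCP rats that carried Iba1, a marker of microglia. miR-155-5p rose by 3.50 and miR-146a-5p by 1.74 on the log2 scale, and their partners miR-155-3p and miR-146a-3p were also called. miR-147, induced in stimulated macrophages, had 39, 37 and 38 counts for BCP rats 1 to 3, with 2, 3 and 0 for sham rats 1 to 3. Its BCP mean was 11.0-fold the level of 3 counts in each sham library, and that of miR-155-3p was 8.67-fold. These values leave out sampling error. The fits had lower 95% limits of 2.94 for miR-147 and 2.37 for miR-155-3p on the log2 scale. miR-146b-5p, which shares its seed with miR-146a-5p, was at 3200 CPM in both groups, with a log2 fold change of 0.0011 (95% interval -0.28 to 0.28). Its partner miR-146b-3p had a log2 fold change of 0.0023 and was not called. The miRNAs of this list were known from earlier results of these data, so the count is not independent support.

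**Figure D4:**
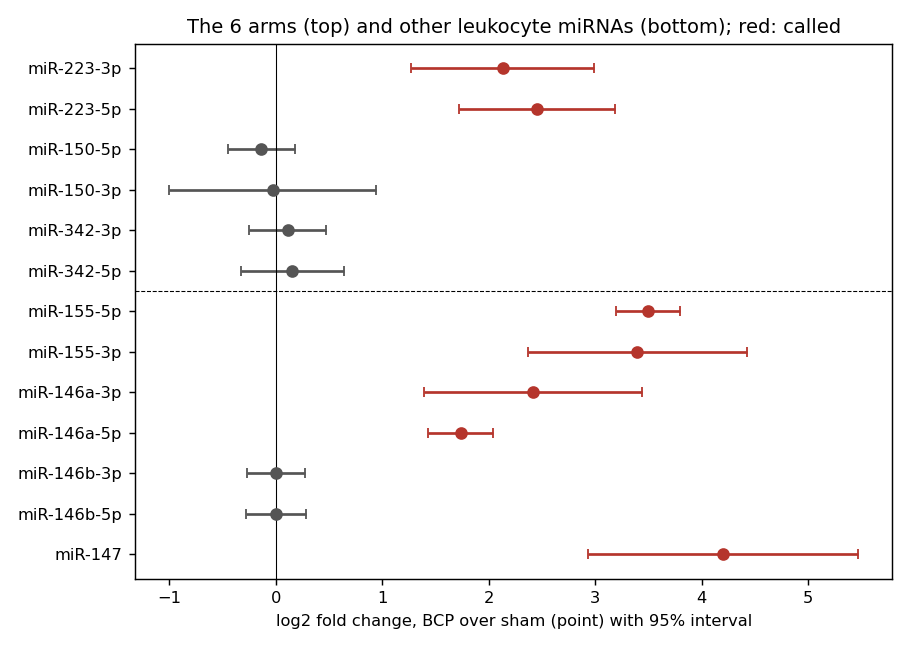
Log2 fold change of BCP over sham with its 95% interval (horizontal axis) for the 6 arms, above the dashed line, and for the 7 tested arms of other leukocyte miRNAs, below it; called arms are red. The intervals of miR-223-3p and miR-223-5p lie above 0, those of the miR-150, miR-342 and miR-146b arms include 0, and the fitted values of miR-147 and miR-155-3p depend on the prior count because their sham counts are at most 3.

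Markers of the labelled tissue were present in all libraries. The 12 arms of neuronal and glial miRNAs (miR-9a, miR-124, miR-128, miR-219a, miR-338) summed to between 143942 and 158637 CPM over the 6 libraries, and 0 were called. Of the 10 arms of miR-10 and miR-196, which lie in the Hox gene clusters and mark the caudal body axis, 8 were tested and 0 called. The vessel wall list (miR-126, miR-143, miR-145) summed to 21378 to 30446 CPM among BCP rats, against 21485 to 29085 CPM among sham rats, with 0 of 6 tested arms called. Skeletal muscle miRNAs (miR-1, miR-133a, miR-133b, miR-206) summed to 110 to 116 CPM among BCP rats, against 97.8 to 120 CPM among sham rats, with 0 of 4 tested arms called. For lists of this size 0 called arms is near the share called over all miRNAs (3.49%) and is not a result about the markers. The summed level of the 6 arms themselves, which is nearly all miR-150-5p and miR-342-3p, was 1686 to 2130 CPM and 1651 to 2203 CPM.

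Red cell content could not be read from miR-144 and miR-451, and miR-486, also planned as a red cell miRNA, was not analysed here. All 4 listed arms of the red cell miRNAs miR-144 and miR-451 were listed at 0 in all 6 libraries, and so were both arms of miR-142, which is found in nearly all white blood cells. These zeros do not stand alone. In RefSeq order along chromosome 10, the 16 consecutive listed arms from miR-144-5p to miR-142-3p include 15 at 0 in every library, among them both arms of miR-21, a miRNA detected in most tissues. The exception was miR-3549, which overlaps the miR-193a arms in that order, with 56 counts in all. The arm just before the stretch, miR-423-5p, had 42427 counts over the 6 libraries, and the arm just after it, miR-196c-5p, had 398. Of the other 41 listed arms of the chromosome 4 were at 0, and of all 753 listed miRNAs 150 were (19.9%). The order is that of GRCr8, whereas the authors mapped to Rnor_6.0. For miR-142, miR-144, miR-451 and miR-21 it is therefore stated only that they are listed at 0. The part of blood left in the tissue in the miR-223 result was not tested. The level of miR-150-5p was 0.911-fold, but this miRNA is not restricted to blood cells, so its level does not measure blood content.

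**Figure D5:**
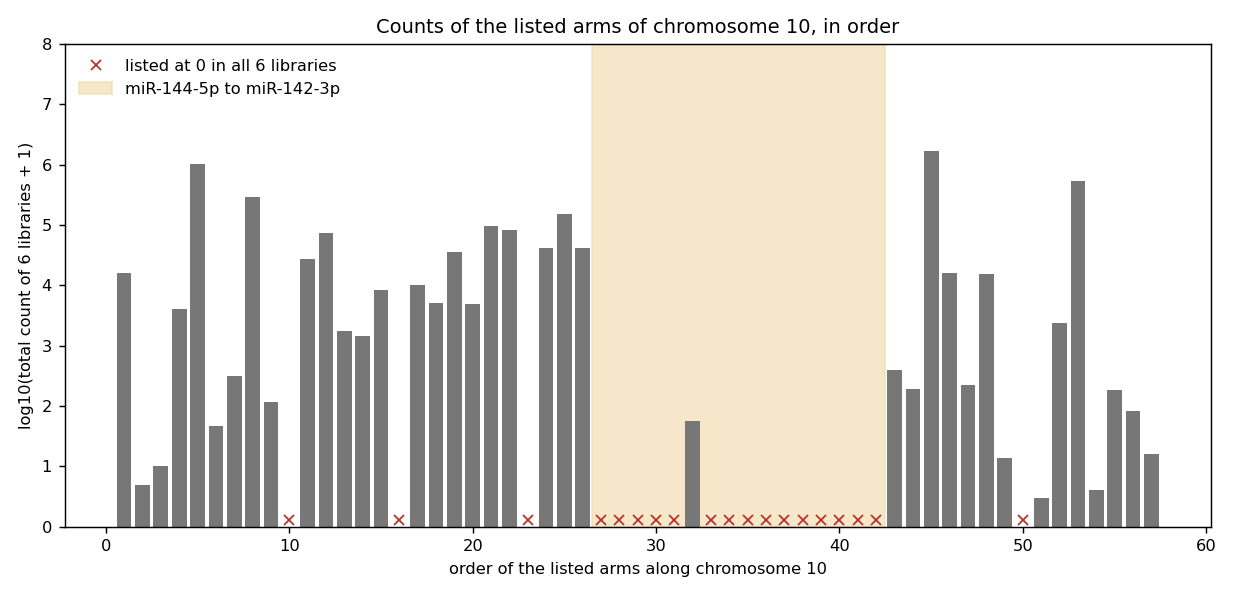
Total count of the 6 libraries as log10(count + 1) (vertical axis) for the 57 listed arms of chromosome 10 in their RefSeq order (horizontal axis), with crosses for arms at 0 in all 6 libraries. The shaded stretch from miR-144-5p to miR-142-3p holds 16 arms, of which 15 are at 0.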

How the data were processed

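The data are small RNA sequences of lumbar cord from 3 BCP and 3 sham libraries. The authors filtered reads with the FASTX Toolkit, kept clean reads of 18 to 40 nucleotides, mapped them to the rat genome Rnor_6.0 (the submitters' notes name Bowtie2 2.2.3) and assigned known miRNAs by length and miRBase. What the authors deposited are read counts for each mature miRNA, with no normalization applied. How reads with several matches were assigned is not given in the sources used here. Here, counts were filtered with filterByExpr (minimum count 10), scaled by TMM and tested with edgeR 4.0.16 (quasi-likelihood test, Benjamini-Hochberg over 459 miRNAs) in R 4.3.3. DESeq2 1.42.0 and limma 3.58.1 served as alternatives. Standard errors and 95% intervals came from the fold change and its F statistic, and intervals on single libraries are exact binomial. Ratios within libraries had 0.5 added to each count and were compared by a two-sided exact permutation test. CPM of 3 counts lay between 0.126 and 0.223. No library was a copy of another of its group (chi-square of at least 59.7 per degree of freedom). All rows found by the rule are named, as are the tested arms of other leukocyte miRNAs and the 3 nearest miRNAs by Pearson's r (log2 CPM, prior count 2). The other marker lists are described by family and summed level, although the rule set for naming would have named their arms with at least 10 counts in some library. The members and lists were chosen with earlier results of these data known. miR-486 was not analysed here. Chromosomes and neighbours are from GRCr8, another assembly than the authors', so no coordinates are given.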

Additional observations from a re-analysis of the deposited data

How the results depend on the processing

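miR-223-5p, which reached the filter's level only in the BCP group, was called in every setting that kept it. miR-223-3p was called in all but the edgeR fit without BCP rat 2 (log2 fold change 2.18, adjusted p 0.0614). Across the 6 fits that left out a rat, miR-223-5p ranged from 2.22 to 2.75 in log2 fold change. miR-223-3p ranged from 1.77 to 2.54. With 10 counts required in every library 1 of the 6 arms was called in place of 2, because that filter removes miR-223-5p, and leaving out a rat gave from 1 to 2. Over all miRNAs, 16 were called, from 8 to 20 without a rat (8 without BCP rat 2, 10 without BCP rat 3, 9 without sham rat 1) and from 11 to 19 in the other settings. The uncalled arms stayed uncalled in every setting. miR-150-3p changed sign with limma-voom (0.12) and with the replicate block (0.023), and without a rat it ranged from -0.43 to 0.33, with 0.09 without BCP rat 2, 0.01 without BCP rat 3, 0.05 without sham rat 1 and 0.33 without sham rat 2. Without a rat miR-342-3p ranged from -0.050 to 0.25, miR-342-5p from -0.062 to 0.31 and miR-150-5p from -0.25 to -0.04. The log2 ratio of miR-223-3p to miR-150-5p ranged from 1.81 to 2.76 and to miR-342-3p from 1.50 to 2.50. The 5p to 3p difference ranged from -0.24 (without sham rat 1) to 0.89 (without sham rat 2, which separates the groups) for miR-223, from -0.49 to 0.21 for miR-150 and from -0.02 to 0.12 for miR-342.

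The replicate numbers are only numbers. Same-numbered rats had correlations of deviations of -0.0282, -0.434 and 0.607, and BCP rat 1 correlated best with sham rat 2 (0.674). With the replicate block 18 miRNAs were called against 16, and miR-223-3p had a log2 fold change of 2.17. Depth limits single libraries of the rare arms, with a counting error of 35.4% to 50.0% for miR-223-5p in the sham rats. The cause of the shifts between settings was not tested.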

Other observations

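After the values were seen, the ratio of miR-150-5p to miR-342-3p, the abundant arms of miR-150 and miR-342, was also taken within each library. It was 1.59, 1.73 and 1.43 for BCP rats 1 to 3, compared with 1.89, 1.76 and 2.02 for sham rats 1 to 3, so every BCP library lay below every sham library although neither miRNA was called by itself. The difference in mean log2 ratio was -0.26, or 0.836-fold (p = 0.1 by a two-sided exact permutation test, which cannot go lower here). The nearest libraries of the groups were BCP rat 2 and sham rat 2, and without a rat the difference ranged from -0.33 to -0.19. Since the ratio was picked from its values, the p-value is not an independent test.

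The spread of the ratio of miR-223-3p to miR-150-5p was wider in the sham group (SD 1.01 on the log2 scale) than in the BCP group (SD 0.12). The sham counts of miR-223-3p were 10 to 32 and the BCP counts 82 to 187, and the difference in spread was not tested.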
